A study of Mus musculus with 9 samples.

Results

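The genes of glycolysis and of the response to low oxygen were followed across 3 mouse epithelial cell lines, each hybridised to 3 Affymetrix MG-430 2.0 arrays. Members were taken from a list of 34 genes, 21 of them for glucose uptake, the glycolytic steps and lactate handling and 13 for the hypoxia response. A member counted as measured when a probe set that is no array control carried its symbol and no other. The brightest such probe set, by mean over the 9 arrays, stood for the gene. This left 30 measured members, 18 glycolytic and 12 of the hypoxia response, among 18193 genes in all. Eno1 and Gpi1 had no probe set with their symbol in the annotation used, and the probe sets of Bnip3l carried a further symbol. Gapdh had such shared probe sets and array controls, which are given apart below.

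The tumour line (MDA-F471) came out of an adenocarcinoma in the lung of 1 female mouse with Gprc5a knocked out, killed 16 months after injection of NNK, a carcinogen of tobacco smoke. The knockout line (NULL-NLE) is a non-tumorigenic epithelial line from the trachea of a Gprc5a-knockout mouse of 3 weeks. The wild-type line (WT-NLE) was grown in the same way from a mouse of 3 weeks with intact Gprc5a. Mice of all groups were C57/BL6 x sv129. The tumour and knockout lines thus both carry the Gprc5a knockout, and each group is 1 line, so line, genotype, handling and, for the tumour line, organ, age and carcinogen cannot be told apart. The labels do not say whether the 3 arrays of a line are separate cultures, so the spread behind each p-value may be technical. No source used here gives oxygen, glucose or cell density in culture. A lower signal in a whole culture may mean fewer cells of a type or less RNA per cell, which cannot be told apart.

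Glycolysis takes up glucose, traps it by phosphorylation and splits it into pyruvate, which is either oxidised in mitochondria or turned into lactate and exported. When oxygen is low, the prolyl hydroxylases that mark hypoxia-inducible factor (HIF) for degradation slow down, and HIF binds a short motif at genes for glucose uptake, glycolysis, mitophagy and pH control. Because several steps exist as isozymes from separate genes, a change in 1 isozyme need not change the step.

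Gprc5a, the targeted gene, read 6.96, 7.02 and 7.09 log2 on the tumour arrays and 7.20, 7.09 and 7.18 on the knockout arrays, against 8.63, 8.74 and 8.32 on the wild-type arrays. Whether its probe set lies in the deleted part is unknown. Arrays of the same line correlated at 0.990 to 0.996 (Pearson's r across probe sets, which are not independent) and arrays of different lines at 0.91 to 0.97. Epithelial Epcam read 12.03, 11.73 and 11.74 log2 and Cdh1 11.92, 12.63 and 12.88 in the tumour, knockout and wild-type lines and were not called. The other 3 of 5 markers of simple epithelium were called higher in the tumour line against both: Krt8 read 13.99, 12.66 and 11.68, Krt18 14.08, 10.59 and 8.03, and Krt19 12.05, 5.32 and 10.22 in the same order of lines. Between knockout and wild-type lines Krt18 was called higher (2.55) and Krt19 lower (-4.90). The basal cell keratin Krt5 read 8.43 in the tumour line, against 14.38 and 14.46 in the knockout and wild-type lines, and 4 of 6 basal markers were lower in the tumour line in both comparisons. The basal factor Trp63 was also lower in the knockout than in the wild-type line (-1.36). Of 3 secretory markers Cyp2f2 was lower in the tumour line, by -5.55 against the knockout and -5.30 against the wild-type line. Surfactant gene Sftpc (5.72) and lung factor Nkx2-1 (5.35) in the tumour line were not called against either tracheal line, and 0 of 5 alveolar type II markers were. The means of Sftpc and Nkx2-1 lay under 5.96, the highest single bacterial control value, in all 3 lines, so their levels are uncertain. Of the fibroblast and endothelial markers 0 of 6 and 0 of 4 were called in each comparison, and of the leukocyte markers only Cd68, lower in the tumour than in the wild-type line. The 3' minus 5' difference of the beta-actin control, a sign of RNA quality, was 0.37 to 0.74 on tumour arrays, 0.90 to 0.95 on knockout arrays and 0.75 to 1.78 on wild-type arrays. The BioB hybridisation control (its middle probe set) read 7.60 to 8.24 on tumour, 8.32 to 9.48 on knockout and 8.42 to 8.57 on wild-type arrays. The part of these epithelial markers in all 3 comparisons below, and of RNA quality and hybridisation in the tumour comparisons, was not tested.

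A gene was called when it differed by at least 2-fold with a limma adjusted p (Benjamini-Hochberg, all 18193 genes) under 0.05. At this threshold 14 of the 30 measured members were called in at least 1 comparison, 8 of 18 glycolytic and 6 of 12 hypoxia genes, and 20.5% of all genes were. The knockout line had lower signal than the wild-type line for glucose transporter Slc2a1, hexokinase Hk2, aldolase Aldoc, lactate transporter Slc16a1 and the hypoxia genes Bnip3 and Ndrg1, and higher signal for Pfkfb3. In the tumour line Hk2 and Slc16a3 were higher than in both others, while Aldoc, Ndrg1, Egln3 and phosphofructokinase Pfkp were lower than in both. Members were called in both directions, and the lactate transporters Slc16a1 and Slc16a3 were called in opposite directions between tumour and wild-type lines.

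**Figure D1:**
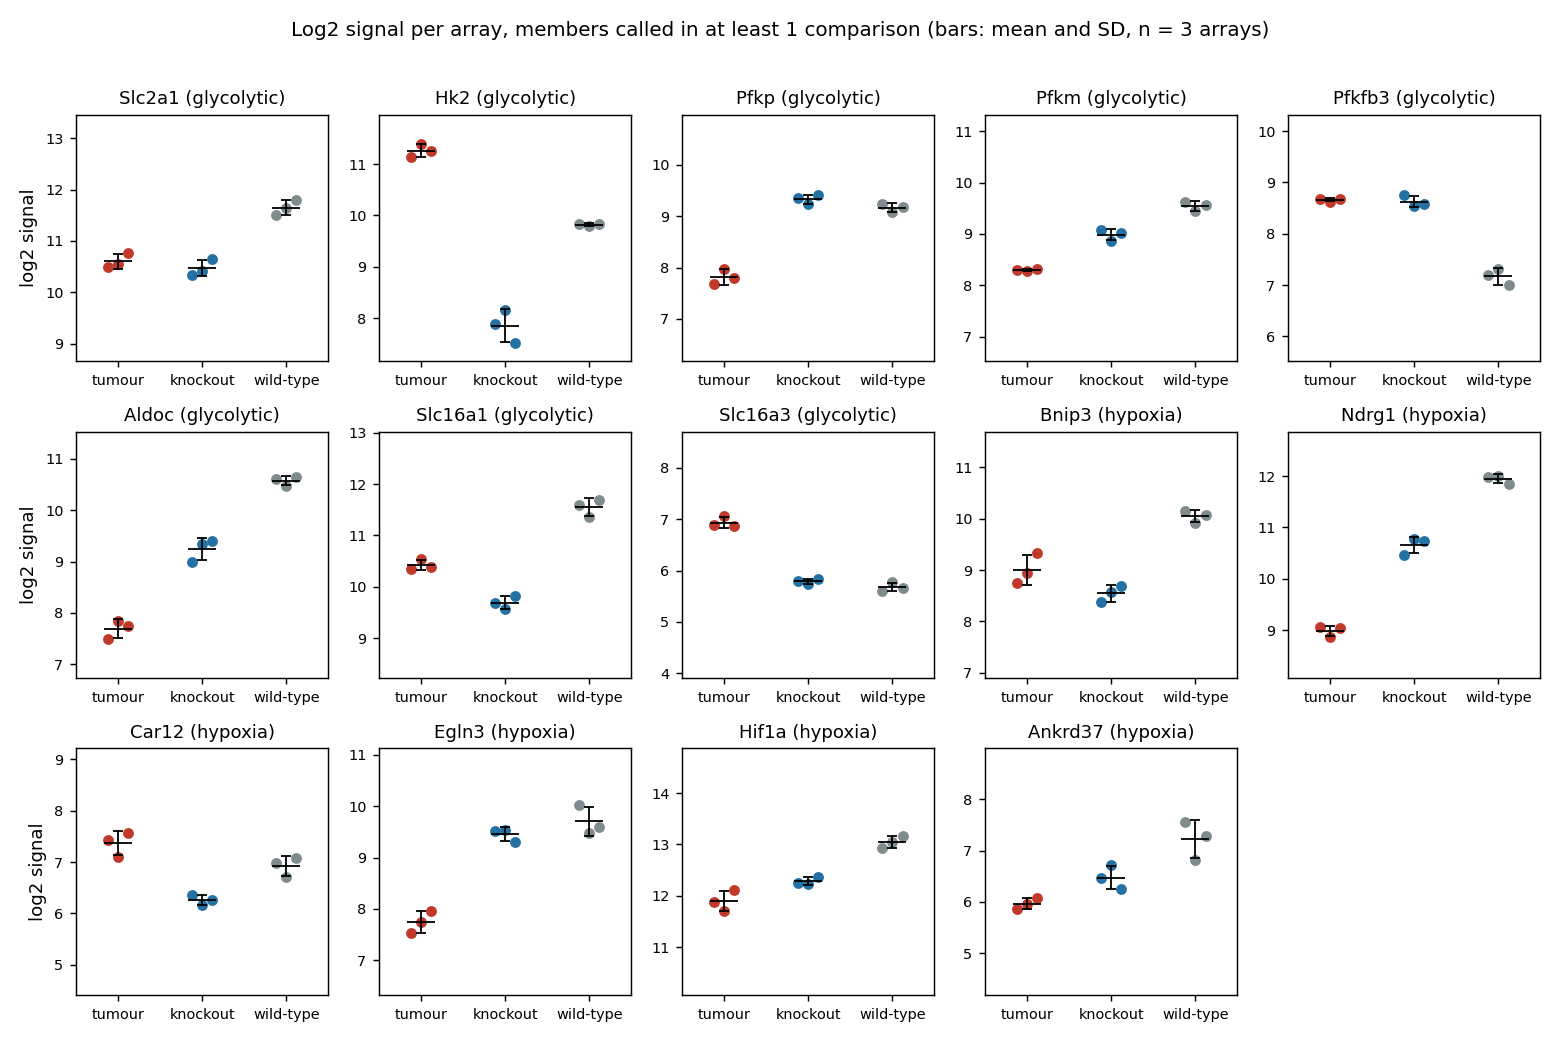
Log2 signal on each array (vertical axis) of the 14 members called in at least 1 comparison, by line (horizontal axis: tumour, knockout, wild-type), with points for arrays, bars for the mean and SD of 3 arrays and the same span of log2 units in each panel. Hk2 is highest in the tumour and lowest in the knockout line, and Aldoc and Ndrg1 are highest in the wild-type and lowest in the tumour line.

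Between knockout and wild-type lines, 4 glycolytic members fell, 1 rose and 13 were not called, and of the hypoxia members 2 fell, 0 rose and 10 were not called. Over all genes 4.88% were called, 2.98% lower and 1.9% higher. At an unadjusted p under 0.05 and any fold, limma gave 0 hypoxia members as higher and 6 as lower in the knockout line. There 35% of all genes passed, counting both directions. The median log2 difference was -0.27 for glycolytic and -0.34 for hypoxia members, beside -0.0042 for all genes. Between tumour and knockout lines, 2 glycolytic members rose and 2 fell, and 1 hypoxia member rose and 2 fell, where 14.2% of all genes were called (7.79% higher, 6.38% lower). Between tumour and wild-type lines, 3 glycolytic members rose and 5 fell, and 0 hypoxia members rose and 5 fell, where 16.6% of all genes were called (8.09% higher, 8.46% lower). With an unadjusted p under 0.05 and any fold, 6 hypoxia members were higher and 6 lower in the tumour line. There 51.9% of all genes passed, counting both directions. The arrays of the 2 lines did not overlap for 21 of 30 members between tumour and knockout lines (52.3% of all genes), for 17 between knockout and wild-type lines (39.1%) and for 24 between tumour and wild-type lines (54.7%). Medians for tumour against knockout were 0.13 and 0.24 for glycolytic and hypoxia members, and for tumour against wild-type -0.0034 and -0.20, beside 0.000027 and 0.010 for all genes. The comparisons share arrays, so a low knockout signal enters the first and the second with opposite sign. The knockout line held the lowest mean of the 3 lines for 10 of 18 glycolytic and 6 of 12 hypoxia members, and for 28.8% of all genes.

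**Figure D2:**
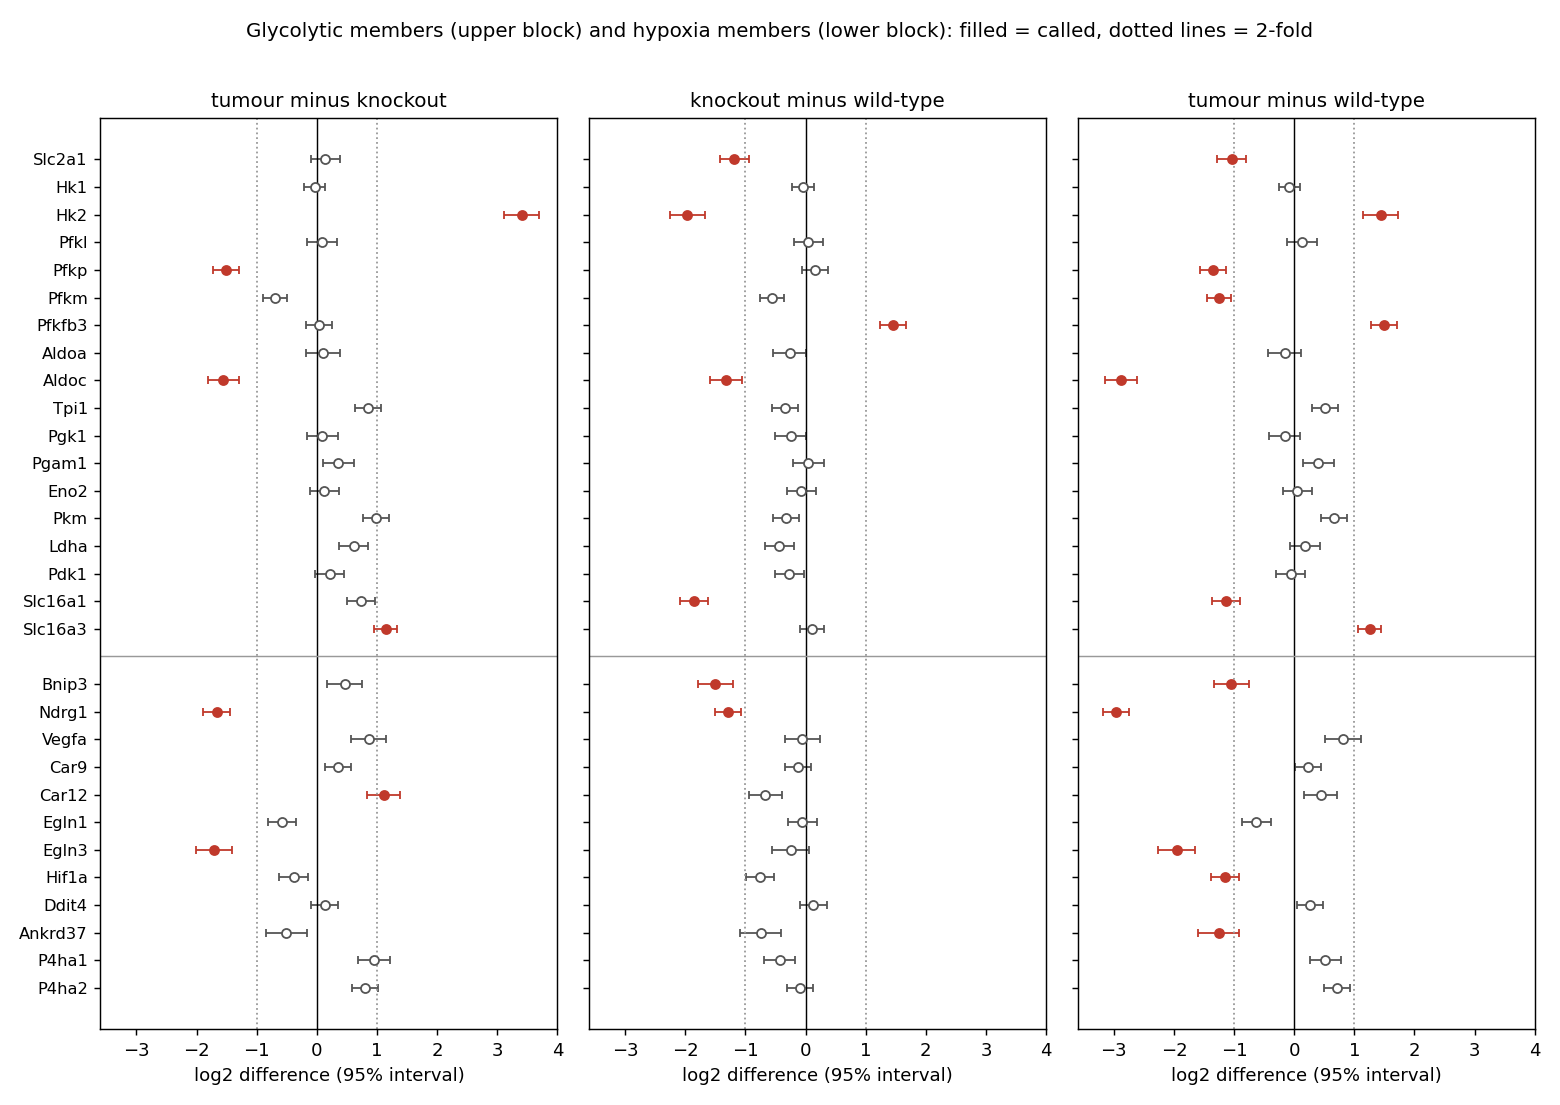
Log2 difference of each measured member (points, with 95% intervals of limma's fit) for tumour minus knockout, knockout minus wild-type and tumour minus wild-type, glycolytic members above and hypoxia members below the line, with filled points called and dotted lines at 2-fold. The rise of Hk2 in the tumour against the knockout line, 3.41, is the largest difference shown.

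The known HIF motif ends in ACGTG or GCGTG, and ACGTG was searched on both strands (CACGT on the printed strand is its reverse complement). Stretches of 7 called members are shown because these genes were called in different directions. Promoter windows ran from 250 bases before to 50 after each annotated start (RefSeq, GRCm38.p6). Of the 34 listed members 32 had a window, and Bnip3l and Ndrg1 had none. The core was found in a window of 24 of these 32 (75%), 14 of 21 glycolytic and 10 of 11 hypoxia genes, and in 21.8% of the 27025 genes of the table. Overlapping matches on both strands, as in CACGTG, were counted as 1 occurrence, and base composition was not matched. Among measured members it was found for 11 of 13 called and 12 of 16 uncalled genes. It was not found in the windows of Pfkp and Car12. Each line gives 80 bases of the gene's strand, 5' to 3', with the core in capitals.
Hk2: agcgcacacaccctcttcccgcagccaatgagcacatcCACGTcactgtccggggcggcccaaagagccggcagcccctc
Slc2a1: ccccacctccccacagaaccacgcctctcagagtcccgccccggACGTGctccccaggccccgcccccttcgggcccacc
Pfkfb3: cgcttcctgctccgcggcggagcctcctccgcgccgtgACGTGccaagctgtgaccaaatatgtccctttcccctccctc
Slc16a1: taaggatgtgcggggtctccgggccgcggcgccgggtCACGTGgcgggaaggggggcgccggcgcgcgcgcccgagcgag
Slc16a3: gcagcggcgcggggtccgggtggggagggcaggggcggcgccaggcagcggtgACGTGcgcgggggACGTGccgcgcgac
Bnip3: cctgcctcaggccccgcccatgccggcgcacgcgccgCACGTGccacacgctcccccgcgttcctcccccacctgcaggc
Egln3: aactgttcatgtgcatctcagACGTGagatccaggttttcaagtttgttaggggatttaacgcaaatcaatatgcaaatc
These stretches are chr6:82774465-82774544 (minus strand) for Hk2, chr4:119108665-119108744 (plus) for Slc2a1, chr2:11553948-11554027 (minus) for the more upstream start of Pfkfb3, chr3:104638427-104638506 (plus) for Slc16a1, chr11:120948987-120949066 (plus) for Slc16a3, chr7:138909572-138909651 (minus) for Bnip3 and chr12:54204045-54204124 (minus) for Egln3. All lie upstream of the annotated start. The printed core begins 36 bases before the start in Slc2a1, 52 in Hk2, 60 in Pfkfb3, 108 in Bnip3, 200 in Slc16a1 and 229 in Egln3, and the nearer of 2 cores 14 bases before it in Slc16a3. A match describes these letters and is not evidence of binding.

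Glucose enters these cells through transporters such as Slc2a1, the transporter of most cultured cells. Slc2a1 read 10.49, 10.56 and 10.77 log2 on the tumour arrays and 10.34, 10.41 and 10.64 on the knockout arrays, against 11.51, 11.63 and 11.80 on the wild-type arrays. Both Gprc5a-null lines lay below every wild-type array and overlapped each other. Slc2a1 fell by 1.18 ± 0.11 (SE) in the knockout line against the wild-type line (limma adjusted p = 1.52e-06). Against the wild-type line the tumour line differed by -1.04 ± 0.11 (adjusted p = 1.57e-06), a fold close to the threshold. Between tumour and knockout lines it was 0.14, with a 95% interval of -0.10 to 0.38. The tumour against wild-type call was lost without wild-type replicate 3 (-0.96), without tumour replicate 1 (-0.98) and with the mean of its 3 probe sets (-0.88).

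Hexokinases trap glucose in the cell as its phosphate. Hk2, the inducible isozyme, read 11.13, 11.40 and 11.25 log2 on the tumour arrays and 7.88, 8.17 and 7.51 on the knockout arrays, against 9.84, 9.79 and 9.84 on the wild-type arrays. The 3 lines did not overlap, with the tumour line above and the knockout line below the wild-type line. Against the knockout line, Hk2 was 10.6-fold higher in the tumour line (log2 difference 3.41 ± 0.14, adjusted p = 2.88e-11) and 2.71-fold higher than in the wild-type line (1.44 ± 0.14, adjusted p = 3.43e-07). The knockout line lay 3.91-fold below the wild-type line (-1.97 ± 0.14, adjusted p = 4.99e-08). Hk2 rests on a single probe set. Hk1, the isozyme of most tissues, read 10.73 to 10.76 in the tumour, 10.72 to 10.84 in the knockout and 10.78 to 10.88 in the wild-type line. Its differences were not called, and the 95% intervals of all 3 lay within -0.26 to 0.14. A second, dimmer Hk1 probe set differed by 0.56 between tumour and knockout lines and was not called either.

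Phosphofructokinase, the committing step, is encoded by the liver, platelet and muscle genes Pfkl, Pfkp and Pfkm. Pfkp read 7.68, 7.98 and 7.80 log2 on the tumour arrays and 9.35, 9.23 and 9.41 on the knockout arrays, against 9.24, 9.08 and 9.18 on the wild-type arrays. The tumour arrays lay apart below the others, by -1.51 ± 0.10 from the knockout (adjusted p = 8.44e-09) and -1.35 ± 0.10 from the wild-type line (adjusted p = 2.45e-08). Its other probe sets differed less, by -0.94 and -0.08 between tumour and knockout lines, and with the mean of its probe sets neither call was made (-0.84 and -0.68).

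Pfkm read 8.30, 8.28 and 8.31 log2 on the tumour arrays, 9.08, 8.86 and 9.02 on the knockout arrays and 9.63, 9.44 and 9.56 on the wild-type arrays. The 3 lines did not overlap, and the tumour line was lowest. Only the difference of tumour and wild-type lines reached 2-fold (-1.25 ± 0.09, adjusted p = 2.17e-08), while -0.69 for tumour against knockout and -0.56 for knockout against wild-type were smaller. Pfkl averaged 10.60 ± 0.14 in the tumour, 10.51 ± 0.11 in the knockout and 10.47 ± 0.20 in the wild-type line (SD, n = 3 each) and was not called.

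Pfkfb3 makes an activator of phosphofructokinase. It read 8.68, 8.63 and 8.67 log2 on the tumour arrays and 8.75, 8.55 and 8.59 on the knockout arrays, against 7.19, 7.32 and 6.998 on the wild-type arrays. Both Gprc5a-null lines were high and overlapped, and no wild-type array reached them. The rise of Pfkfb3 was 1.46 ± 0.10 in the knockout line (adjusted p = 5.27e-08) and 1.49 ± 0.10 in the tumour line (adjusted p = 8.89e-09), each over the wild-type line, and tumour and knockout lines differed by 0.03 (95% interval -0.18 to 0.25). A dimmer probe set differed by 0.39 and 0.60 and was not called, and with the mean of both the knockout call was lost (0.92). Pfkfb3 was the only glycolytic member to rise in the knockout line.

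Aldolase splits the phosphorylated sugar. Aldoc, an isozyme best known from brain, read 7.49, 7.85 and 7.74 log2 on the tumour arrays, 8.997, 9.35 and 9.40 on the knockout arrays and 10.60, 10.47 and 10.64 on the wild-type arrays. The lines formed 3 separate steps. The differences were -1.55 ± 0.12 for tumour against knockout (adjusted p = 5.51e-08), -1.32 ± 0.12 for knockout against wild-type (adjusted p = 1.09e-06) and, for the outer pair of tumour and wild-type lines, -2.88 ± 0.12 or 7.35-fold lower (adjusted p = 4.67e-11). A second Aldoc probe set, near background in the tumour and knockout lines, had the same signs, with -0.23, -0.86 and -1.09, and with the mean of both the tumour against knockout call was lost (-0.89). Aldoa, the main aldolase outside liver and brain, averaged 12.03 ± 0.26, 11.93 ± 0.07 and 12.19 ± 0.19 in the tumour, knockout and wild-type lines (SD, n = 3 each) and was not called by any of its 5 probe sets.

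Tpi1, Pgk1, Pgam1 and Pkm, which act after aldolase, differed by less than 2-fold in all 3 comparisons. Tpi1, triosephosphate isomerase, read 12.25, 12.40 and 12.35 log2 on the tumour arrays, 11.53, 11.49 and 11.44 on the knockout arrays and 11.996, 11.65 and 11.82 on the wild-type arrays. Its tumour arrays lay above all others, by 0.84 ± 0.10 from the knockout and 0.51 ± 0.10 from the wild-type line, both under 2-fold. Pkm, the pyruvate kinase gene, read 13.05, 13.07 and 13.13 on the tumour arrays, 12.20, 12.12 and 11.97 on the knockout arrays and 12.59, 12.41 and 12.25 on the wild-type arrays. At 1.98-fold (0.98 ± 0.10, adjusted p = 1.27e-06) its tumour against knockout difference was just under the threshold, and it passed when arrays were centred on their median (1.00), without knockout replicate 1 (1.04) and without tumour replicate 1 (1.00). The probe set does not tell apart the spliced forms of Pkm.

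Pgk1, phosphoglycerate kinase, averaged 13.37 ± 0.24 in the tumour, 13.28 ± 0.14 in the knockout and 13.52 ± 0.08 in the wild-type line and was not called. Pgam1, phosphoglycerate mutase, averaged 12.35 ± 0.19, 11.997 ± 0.05 and 11.95 ± 0.21 in the same lines (SD, n = 3 each), and its largest difference was 0.40 for tumour against wild-type. The neuronal enolase Eno2 lay under a log2 signal of 5.15 on all 9 arrays. That value, chosen with the data known, is what 95% of the pooled array readings of the 27 bacterial control probe sets stayed under. Eno2 was thus not above background. The 3 Gapdh control probe sets, which the list's rule leaves out, averaged 14.10, 13.79 and 13.63 in the tumour line (3' end, middle and 5' end). The knockout line averaged 13.28, 12.76 and 12.76 and the wild-type line 13.38, 12.76 and 12.57. All tumour arrays lay above the knockout and wild-type arrays in each of the 3 sets, and these control sets were not tested. The 3 probe sets that Gapdh shares with other symbols were tested among all probe sets and not called in any comparison. They differed by 0.79, 0.94 and 0.53 for tumour against knockout, and by 0.64, 0.82 and 0.53 for tumour against wild-type. For knockout against wild-type the differences were -0.16, -0.12 and -0.007.

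Pyruvate leaves glycolysis towards lactate or the mitochondrion. Ldha, which makes lactate, read 12.55, 12.74 and 12.63 log2 on the tumour arrays, 12.13, 11.99 and 11.96 on the knockout arrays and 12.69, 12.25 and 12.45 on the wild-type arrays. The knockout arrays lay below all others, with 0.62 ± 0.11 for tumour minus knockout (adjusted p = 0.000323) and -0.44 ± 0.11 for knockout minus wild-type (adjusted p = 0.00945), both under 2-fold. Pdk1, a kinase that holds back the oxidation of pyruvate, averaged 9.70 ± 0.21, 9.49 ± 0.05 and 9.76 ± 0.13 in the tumour, knockout and wild-type lines and was not called. Its 4 probe sets disagreed, and a dimmer one differed by -1.41 between tumour and wild-type lines (limma adjusted p = 1.12e-07 over all probe sets).

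Lactate crosses the membrane through Slc16a1, which works in both directions, and Slc16a3, the exporter typical of highly glycolytic cells. Slc16a1 read 10.35, 10.54 and 10.38 log2 on the tumour arrays and 9.68, 9.57 and 9.83 on the knockout arrays, against 11.59, 11.36 and 11.70 on the wild-type arrays. The knockout line was lowest and the tumour line between the others, with no overlap. Slc16a1 was 3.63-fold lower in the knockout (-1.86 ± 0.11, adjusted p = 7.93e-09) and 2.19-fold lower in the tumour than in the wild-type line (-1.13 ± 0.11, adjusted p = 4.35e-07). A second Slc16a1 probe set read near background, and with the mean of both the tumour against wild-type call was lost (-0.73).

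Slc16a3 read 6.88, 7.06 and 6.86 log2 on the tumour arrays and 5.79, 5.74 and 5.83 on the knockout arrays, against 5.61, 5.77 and 5.66 on the wild-type arrays. Only the tumour line stood apart, 2.21-fold above the knockout (1.14 ± 0.09, adjusted p = 6.64e-08) and 2.38-fold above the wild-type line (1.25 ± 0.09, adjusted p = 2.02e-08). The signals of both tracheal lines lay above 5.15 but under 5.96, the highest single bacterial control value, so their levels are uncertain.

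**Figure D3:**
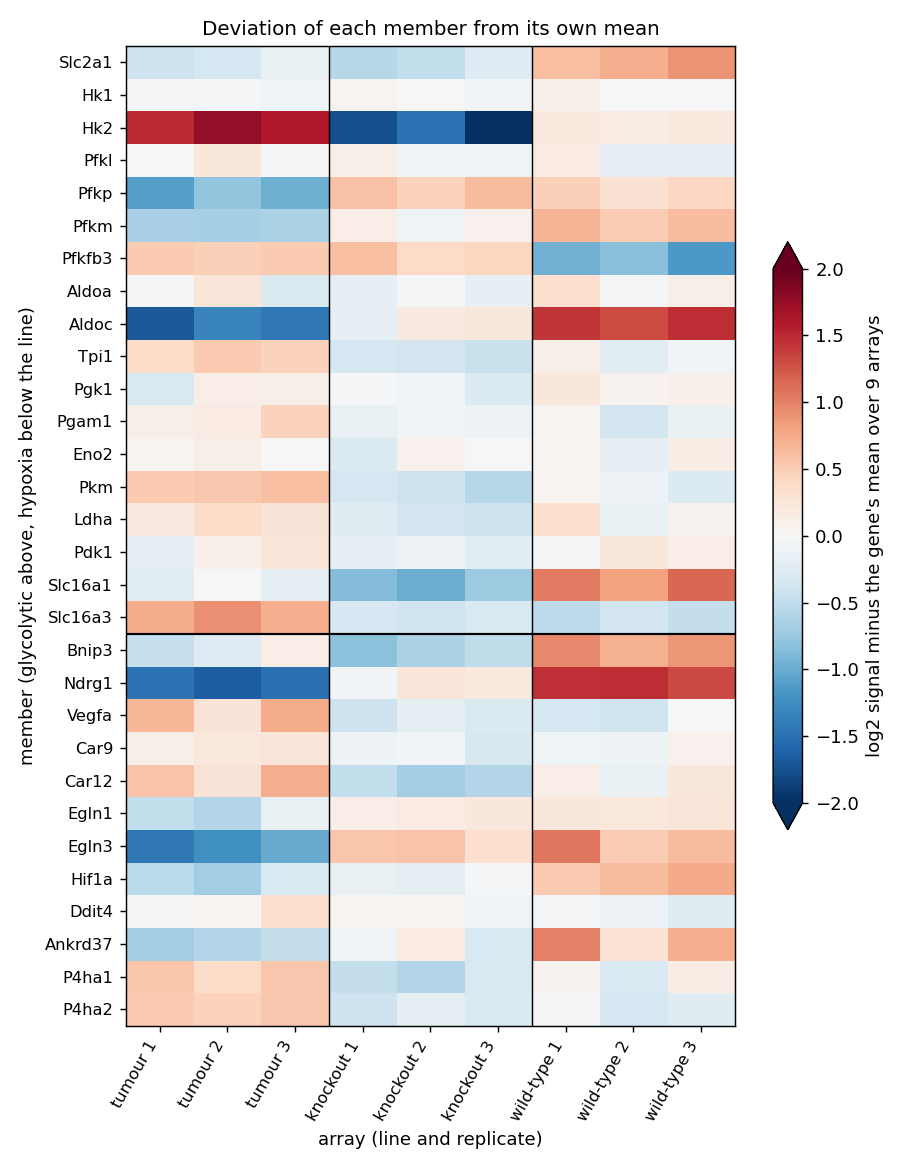
Log2 signal of the 30 measured members (rows) on the 9 arrays (columns, tumour, knockout and wild-type from left to right) minus the member's own mean over the arrays, glycolytic above and hypoxia below the black line, with colour (red high, blue low) saturating at a deviation of 2. Blue in the knockout columns marks Hk2, Slc16a1 and Bnip3, and blue in the tumour columns Aldoc, Ndrg1, Egln3 and Pfkp.

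Among the hypoxia genes, the transcription factor and its oxygen sensors come first. Hif1a, the oxygen-regulated subunit of HIF, read 11.87, 11.71 and 12.10 log2 on the tumour arrays, 12.26, 12.23 and 12.37 on the knockout arrays and 12.93, 13.04 and 13.16 on the wild-type arrays. The lines did not overlap. Hif1a fell 2.21-fold in the tumour against the wild-type line (-1.15 ± 0.11, adjusted p = 3.72e-07), and the knockout against wild-type difference of -0.76 ± 0.11 stayed under 2-fold. Of its other 3 probe sets 2 were called the same way for tumour against wild-type (-1.93 and -1.03). HIF is controlled mainly through protein stability, which arrays do not measure.

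Egln3, a HIF prolyl hydroxylase that is itself a HIF target, read 7.54, 7.75 and 7.96 log2 on the tumour arrays and 9.52, 9.55 and 9.31 on the knockout arrays, against 10.03, 9.49 and 9.60 on the wild-type arrays. The tumour line lay far below the tracheal lines, which overlapped. It was 3.27-fold lower than in the knockout (-1.71 ± 0.14, adjusted p = 9.94e-08) and 3.88-fold lower than in the wild-type line (-1.95 ± 0.14, adjusted p = 1.84e-08), and a second probe set was called the same way in both comparisons (-2.16 and -2.12). Egln1, the main sensor, averaged 9.39 ± 0.24 in the tumour, 9.97 ± 0.04 in the knockout and 10.02 ± 0.02 in the wild-type line, under 2-fold. Its dimmer probe set had the opposite sign between tumour and knockout lines (0.31).

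Bnip3, a receptor for the removal of mitochondria, read 8.75, 8.94 and 9.33 log2 on the tumour arrays and 8.37, 8.57 and 8.69 on the knockout arrays, against 10.16, 9.92 and 10.07 on the wild-type arrays. Both Gprc5a-null lines were below every wild-type array. Bnip3 fell by 1.50 ± 0.14 in the knockout line (adjusted p = 8.98e-07) and by 1.04 ± 0.14 in the tumour line (adjusted p = 1.10e-05), each against the wild-type line. The tumour call was lost without tumour replicate 1 (-0.92) and without wild-type replicate 1 (-0.99).

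Ndrg1, a stress-induced gene tied to differentiation, read 9.05, 8.87 and 9.03 log2 on the tumour arrays, 10.47, 10.77 and 10.73 on the knockout arrays and 11.99, 12.01 and 11.84 on the wild-type arrays. As with Aldoc, the lines formed 3 separate steps. Its fall of 7.78-fold in the tumour against the wild-type line (-2.96 ± 0.10, adjusted p = 4.96e-12) was the largest of any hypoxia member, and the steps were -1.67 ± 0.10 for tumour against knockout and -1.29 ± 0.10 for knockout against wild-type. All 5 of its probe sets had negative differences in the 3 comparisons, from -3.51 to -0.76.

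Ankrd37, an ankyrin repeat protein induced by low oxygen, read 5.86, 5.96 and 6.07 log2 on the tumour arrays, 6.46, 6.71 and 6.25 on the knockout arrays and 7.56, 6.83 and 7.28 on the wild-type arrays. It was called lower for tumour against wild-type alone (-1.26 ± 0.16, adjusted p = 8.60e-06), and the tumour signal lay near the highest bacterial control value of 5.96. The mTORC1 inhibitor Ddit4 averaged 12.07 ± 0.17, 11.93 ± 0.08 and 11.80 ± 0.10 in the tumour, knockout and wild-type lines (SD, n = 3 each) and was not called.

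Car12, Vegfa, P4ha1 and P4ha2 had their highest mean in the tumour line. The carbonic anhydrase Car12, which acts on extracellular pH, read 7.43, 7.11 and 7.57 log2 on the tumour arrays and 6.35, 6.17 and 6.26 on the knockout arrays, against 6.99, 6.71 and 7.08 on the wild-type arrays. It rose 2.16-fold in the tumour against the knockout line (1.11 ± 0.13, adjusted p = 3.31e-06), and its other 2 probe sets read near background and differed by 0.06 and -0.02. With the mean of its 3 probe sets the Car12 call was lost (0.38). Car9, the carbonic anhydrase most used as a hypoxia marker, averaged 6.37 ± 0.06, 6.02 ± 0.14 and 6.14 ± 0.10 in the tumour, knockout and wild-type lines and was not called.

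Vegfa, the ligand that draws in blood vessels, read 9.08, 8.66 and 9.15 log2 on the tumour arrays, 7.99, 8.21 and 8.11 on the knockout arrays and 8.05, 8.01 and 8.40 on the wild-type arrays. The tumour arrays lay above all others, by 0.86 ± 0.14 from the knockout and 0.81 ± 0.14 from the wild-type line, under 2-fold. Vegfa passed 2-fold against the knockout line without tumour replicate 2 (1.01), and against both lines with the mean of its probe sets (1.06 and 1.02). A second Vegfa probe set was called in both comparisons (1.25 with adjusted p = 0.00120, and 1.23 with adjusted p = 0.00129, over all probe sets).

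The collagen prolyl hydroxylases P4ha1 and P4ha2 had the same order of lines. P4ha1 averaged 8.41 ± 0.10 in the tumour, 7.46 ± 0.15 in the knockout and 7.89 ± 0.24 in the wild-type line, and P4ha2 averaged 8.51 ± 0.04, 7.71 ± 0.11 and 7.80 ± 0.15 (SD, n = 3 each). Their tumour against knockout differences of 0.95 ± 0.12 and 0.80 ± 0.10 were under 2-fold. That of P4ha1 passed without knockout replicate 3 (1.03), without tumour replicate 2 (1.01) and with the mean of its probe sets (1.15). A dimmer P4ha1 probe set was called for tumour against knockout (1.35, adjusted p = 0.00111 over all probe sets). It was also called for tumour against wild-type (1.10, limma adjusted p = 0.00423 over all probe sets).

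**Figure D4:**
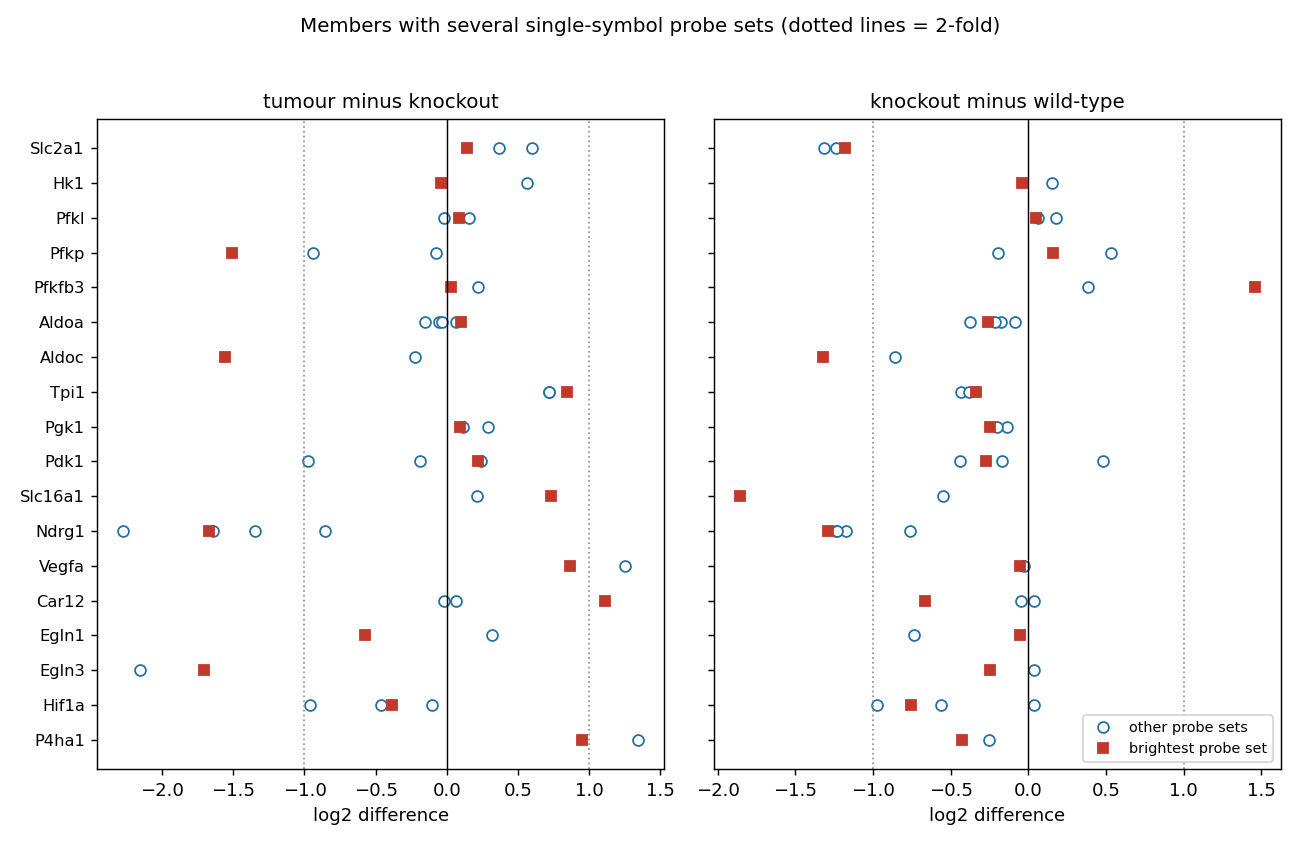
Log2 difference (horizontal axis) of every single-symbol probe set of the 18 members with several, for tumour minus knockout and knockout minus wild-type, with squares for the brightest probe set, used for the gene, open circles for the others and dotted lines at 2-fold. The probe sets of Ndrg1 lie to the left of 0 in both panels, while those of Pfkp, Aldoc, Slc16a1 and Car12 spread widely.

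Further members differed by less than 2-fold with an adjusted p under 0.05. The shares of all genes beside them count both directions. For knockout against wild-type the members were 4 glycolytic and 4 hypoxia genes, each lower in the knockout line, against 21.5% of all genes. For tumour against knockout they were 6 glycolytic members, 5 of them higher, and 8 hypoxia members, 5 of them higher, against 30.4% of all genes. For tumour against wild-type they were 3 glycolytic members, all higher, and 5 hypoxia members, 4 of them higher, against 30.8% of all genes. Over all genes an adjusted p under 0.05 at any fold was reached by 26.4%, 44.5% and 47.3% in these comparisons, and by 15, 21 and 21 of the 30 members. Every gene at 2-fold or more also had an adjusted p under 0.05, so the fold threshold alone set the calls.

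Related genes outside the list were taken from 5 further lists. Of all genes, 4.88% were called between knockout and wild-type lines, 14.2% between tumour and knockout lines and 16.6% between tumour and wild-type lines. The shares called of the 5 lists ran from 0% to 13.5%, from 10% to 33.3% and from 11.8% to 30% in the same order. All these shares count both directions, and whether a list differed from all genes was not tested. Of 17 measured paralogs and branch points of glycolysis, 3 rose in the tumour against the knockout line and 0 fell. These were muscle enolase Eno3 (3.63 ± 0.10, means 9.95 and 6.32), Fbp2, the muscle form of the gluconeogenic bisphosphatase (3.11 ± 0.09, means 9.78 and 6.68), and Pfkfb4 (1.02 ± 0.11). Against the wild-type line, Eno3 (2.66 ± 0.10) and Fbp2 (2.95 ± 0.09) rose and 0 fell. Between knockout and wild-type lines limma called 0 of the 17, and 5 had an adjusted p under 0.05 (1 higher and 6 lower at an unadjusted p under 0.05).

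Of 28 measured genes of pyruvate oxidation and the citric acid cycle, 0 rose and 3 fell in the tumour against the knockout line. These were the kinases Pdk2 (-1.25 ± 0.14) and Pdk3 (-1.01 ± 0.10), relatives of Pdk1, and malate dehydrogenase Mdh1 (-1.03 ± 0.13). Pdp1, a phosphatase that reverses those kinases, rose in the knockout (1.67 ± 0.12, adjusted p = 1.12e-07) and in the tumour line (1.86 ± 0.12, adjusted p = 7.70e-09) against the wild-type line, like Pfkfb3. Its relative Pdp2 went the other way. Pdp2 was called lower in the tumour than in the wild-type line (-1.04 ± 0.12), and was not called between tumour and knockout lines (-0.79) or knockout and wild-type lines (-0.25). The tumour line against the wild-type line had 1 higher and 3 lower, and the knockout line 1 higher and 0 lower. The tumour mean of Pdk2, 5.54, lay under 5.96, the highest single bacterial control value, so its level there is uncertain.

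The pentose phosphate pathway, which branches off after hexokinase, had 9 measured genes. Rpe rose in the knockout against the wild-type line (1.44 ± 0.16). In the tumour against the knockout line H6pd (1.69 ± 0.11) and Rpia (1.00 ± 0.11) rose and transketolase Tkt fell (-1.0001 ± 0.09, means 12.91 and 13.91). Rpia and Tkt only just passed the 2-fold threshold. The tumour line had Rpe (1.82 ± 0.16) and Rpia (1.48 ± 0.11) above the wild-type line and 0 below.

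Of 37 other HIF pathway regulators and hypoxia targets, 1 rose and 4 fell in the knockout against the wild-type line. Bhlhe40 rose (1.13 ± 0.09), and among those that fell were lysyl oxidase Lox (-2.12 ± 0.13), Fam162a (-1.17 ± 0.11) and Zfp395 (-1.08 ± 0.13). In the tumour against the knockout line 3 rose and 3 fell. Epas1, which encodes a further oxygen-regulated HIF subunit, averaged 7.34 in the tumour line and 12.18 in the knockout line (-4.84 ± 0.11, adjusted p = 9.44e-14), and 11.61 in the wild-type line. The transferrin receptor Tfrc (2.64 ± 0.08) and the HIF antagonist Cited2 (2.19 ± 0.12) rose, and Narf fell (-1.61 ± 0.17). Against the wild-type line, 5 rose and 5 fell in the tumour line, among them Tfrc (3.48 ± 0.08), Bhlhe40 (2.57 ± 0.09), Epas1 (-4.27 ± 0.11) and Lox (-3.09 ± 0.13). The tumour mean of Lox, 5.73, lay under 5.96, the highest single bacterial control value, so its level there is uncertain.

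Of 10 measured regulators of glycolytic transcription, Myc was higher in the tumour than in the wild-type line (1.37 ± 0.14, adjusted p = 6.11e-07). Its difference from the knockout line, at means of 10.66 and 9.67, was just under 2-fold and not called (0.996 ± 0.14, limma adjusted p = 2.03e-05). The mitochondrial coactivator Ppargc1a fell in the tumour (-1.11 ± 0.12) and knockout lines (-1.30 ± 0.12) against the wild-type line. Its relative Ppargc1b was lower in the tumour line, by -1.18 ± 0.12 against the knockout and -1.11 ± 0.12 against the wild-type line.

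**Figure D5:**
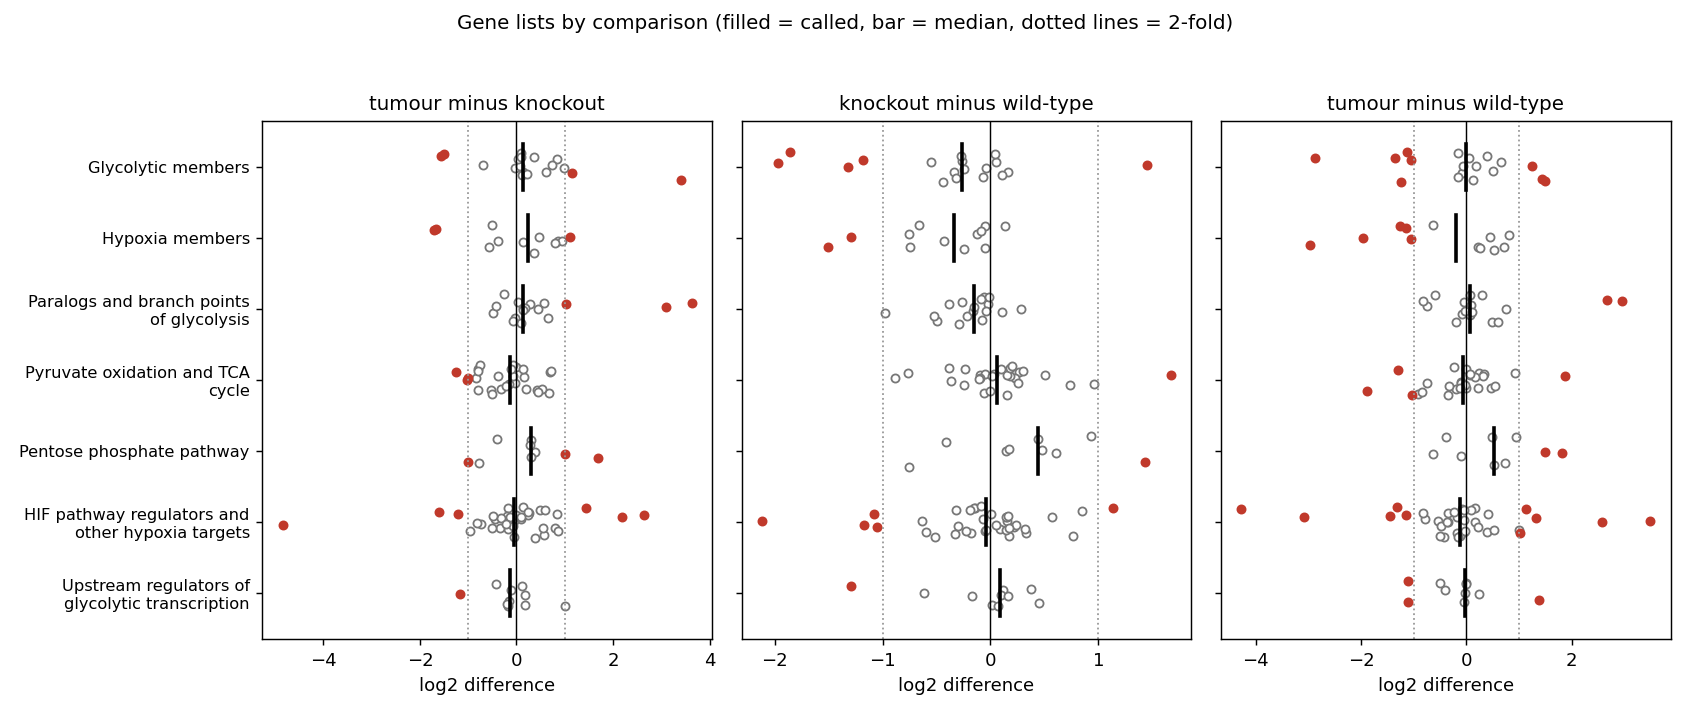
Log2 difference (horizontal axis) of each measured gene of the glycolytic and hypoxia members and of 5 related lists, for tumour minus knockout, knockout minus wild-type and tumour minus wild-type, with filled points called, black bars at medians and dotted lines at 2-fold. Medians of the lists lie between -0.34 and 0.53, and single genes such as Hk2, Eno3, Fbp2 and Epas1 lie far from them.

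The spread between arrays of the same line was small beside these differences. The SD of a member over 3 arrays had a median of 0.14 in the tumour, 0.11 in the knockout and 0.15 in the wild-type line. For all genes the medians were 0.11 in each line. The widest were Bnip3 in the tumour (0.30), Hk2 in the knockout (0.33) and Ankrd37 in the wild-type line (0.37).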

How the data were processed

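RNA of 3 mouse lines was hybridised to 9 arrays as biotin-labelled cRNA, per the labels' protocols. The authors deposited log2 signals, 1 value per probe set and array for 45101 probe sets; no source used here gives their background correction, summarization or normalization. Array medians lay between 6.28 and 6.34. Precision is limited by 3 arrays a line. There were 0 columns of other samples.

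Of the probe sets, 64 were controls, 34945 carried 1 gene symbol in the platform annotation, 932 several and 9160 none; 34741 of those with 1 symbol matched the gene table by Entrez ID. Each of 18193 genes was represented by its brightest single-symbol probe set. A linear model over the 9 arrays was fitted with limma 3.58.1 (R 4.3.3, lmFit and eBayes, 6 residual degrees of freedom, two-sided), adjusted by Benjamini-Hochberg over all genes. The self-test planted 50 genes per fold and comparison among 18193: at 1.5-fold 0, 0 and 1 were called (knockout against wild-type, tumour against knockout, tumour against wild-type), and at 2.5-fold 50 in each.

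Members, lists and tests were chosen with earlier results of these data known. Named genes are the members, plus up to 4 called genes per related list and comparison. Alternatives were quantile normalization, median centring, filters on dim or cross-hybridising probe sets, averaging all probe sets of a gene, every probe set, other fold thresholds, an intensity trend, fits of 6 arrays, the replicate block and leaving out each array.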

Additional observations from a re-analysis of the deposited data

How the results depend on the processing

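Of the 27 calls of members over the 3 comparisons, 19 held in each of 18 alternatives that kept the 2-fold threshold. In all, 0 results reversed. The intensity trend, the replicate block, the fits of 6 arrays and every probe set on its own left these log2 differences unchanged. Those alternatives could lose a call only through its adjusted p. The calls that did not hold, lost when all probe sets of a gene were averaged or without 1 array, are named in the report. With that average, 0 glycolytic members were called higher for knockout against wild-type, 0 lower for tumour against knockout and 2 lower for tumour against wild-type, and 2 and 1 hypoxia members were called higher in the tumour comparisons. Leaving out probe sets that end in _x_at or _s_at, the glycolytic median for tumour against wild-type was 0.13. This filter drops Aldoa and leaves Pgk1 to another probe set, which differed by 0.15 in that comparison where the brightest differed by -0.16. Without the dimmest 40% of probe sets Eno2 was lost. With no fold threshold, 8 glycolytic and 6 hypoxia members were lower and 4805 genes called for knockout against wild-type; 7 glycolytic and 6 hypoxia members were higher, 5 hypoxia members lower and 8103 genes called for tumour against knockout; and 6 glycolytic and 4 hypoxia members were higher and 8614 genes called for tumour against wild-type. At 1.5-fold, 5 hypoxia members were lower (2178 genes called), 6 glycolytic and 4 hypoxia members higher (4881 genes) and 2 hypoxia members higher (5386 genes) in the same order of comparisons. With every probe set on its own, 1672, 5119 and 5908 probe sets were called. Leaving out 1 array gave 1 to 3 hypoxia members called higher for tumour against knockout. Same-numbered arrays showed no sign of a pairing (deviations correlated between -0.14 and 0.12), though 3 arrays a line cannot exclude one. The replicate block changed no call (888, 2578 and 3012 genes), as 2-fold differences all passed the p threshold; at any fold it gave 4853, 8135 and 8632 genes, against 4805, 8103 and 8614 without it.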
